A study of Mus musculus with 14 samples.

Results

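The 351 loci described here are peaks at which NF-κB p65 and CRTC2 were both called after FSK and TNFα were given together, and at which p65 was not called with TNFα alone. They were chosen by measured values: a p65 peak of the FSK+TNFα library was kept when it overlapped a CRTC2 peak of the FSK+TNFα library by at least 1 bp and overlapped no p65 peak of the TNFα library. Of 4221 p65 peaks with FSK+TNFα, 476 (11.3%) overlapped CRTC2, and 351 of those 476 co-bound loci lacked a p65 peak with TNFα. The other 125 co-bound loci also carried a p65 peak with TNFα, and 3745 p65 peaks lacked CRTC2. Over the whole p65 list, 6.44% of peaks overlapped a p65 TNFα peak, so the lack of one is the usual state of a peak in that list and is not a result about these loci.

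The lists came from ChIP-seq in 3T3-L1 cells, mouse preadipocytes that turn into adipocytes when differentiated, used here on day 4. Cells were left untreated (control) or exposed for 1 h to FSK (forskolin, an activator of adenylyl cyclase, at 10 µM), to TNFα, or to both. Each treatment had 1 library for CRTC2, 1 for p65 and 1 for H3AcK27 (acetylated lysine 27 of histone H3, a mark of active promoters and enhancers), so treatments could not be compared across replicates and no p-value is given. Intervals are 95% Wilson intervals over loci and cover counting error only. Among 8 adipocyte genes, an H3AcK27 region covered a start site of Fabp4, Pparg, Lpl and Lipe in control cells and of none of Adipoq, Cebpa, Plin1 and Cd36. Of 4 macrophage genes, 1 (Csf1r) had such a region in control cells.

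Control and TNFα libraries were called against the input of untreated cells, and FSK and FSK+TNFα libraries against the input of FSK-treated cells. The p65 library held 20,490,261 tags with FSK+TNFα and 26,904,732 with TNFα, and the lowest listed peak score was 7 in the first and 8 in the second. A peak score counts at most 1 tag per position. A locus absent from a list is one that did not pass the authors' thresholds there, and its tags in that library are not listed. The part of depth, input and threshold in the absence of p65 with TNFα was not tested.

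In unstimulated cells the coactivator CRTC2 is held in the cytoplasm by phosphorylation through the salt-inducible kinases. A rise in cAMP, which FSK provokes, blocks those kinases, and CRTC2 then enters the nucleus and joins CREB at sites built around TGACG. NF-κB p65 is kept in the cytoplasm by IκB proteins until TNFα signaling leads to their degradation, after which NF-κB dimers enter the nucleus and bind sites near genes of inflammation and cell survival.

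The DNA of 10 of these loci is printed from GRCm38 (mm10), on the plus strand and 5′ to 3′. Capitals mark every match to TGACG, to the AP1 motif (TGACTCA or TGAGTCA), or to the degenerate NF-κB motif on either strand, so CGTCA in capitals is TGACG on the minus strand. The first 3 sequences are among the 4 loci with the highest p65 scores, the next 3 among the 4 with the highest CRTC2 scores, and the last 4 carried both a TGACG and a degenerate NF-κB motif. Each is a p65 peak of 163 bp, except at Ier3, where the bases from the transcription start onward are left out.
Fmnl2, chr2:52997999-52998161: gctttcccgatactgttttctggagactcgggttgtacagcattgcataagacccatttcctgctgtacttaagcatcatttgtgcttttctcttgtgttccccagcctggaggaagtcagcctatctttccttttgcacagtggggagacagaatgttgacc
Pim1, chr17:29469633-29469795: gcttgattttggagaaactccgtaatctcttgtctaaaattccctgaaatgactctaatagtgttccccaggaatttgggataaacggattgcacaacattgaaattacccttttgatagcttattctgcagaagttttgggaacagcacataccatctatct
Fgd2, chr17:29394179-29394341: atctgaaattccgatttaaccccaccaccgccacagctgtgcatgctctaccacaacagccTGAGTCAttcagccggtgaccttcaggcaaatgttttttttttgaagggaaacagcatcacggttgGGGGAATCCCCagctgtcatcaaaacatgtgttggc
Ptpn1, chr2:167860646-167860808: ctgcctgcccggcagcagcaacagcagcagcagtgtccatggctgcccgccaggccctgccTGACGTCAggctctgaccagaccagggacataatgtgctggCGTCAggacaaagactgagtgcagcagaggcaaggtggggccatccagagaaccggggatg
Sfta2, chr17:35590584-35590746: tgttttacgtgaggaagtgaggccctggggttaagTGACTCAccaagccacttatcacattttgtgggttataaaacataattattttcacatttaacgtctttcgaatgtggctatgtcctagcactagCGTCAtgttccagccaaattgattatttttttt
Ier3, chr17:35821544-35821683: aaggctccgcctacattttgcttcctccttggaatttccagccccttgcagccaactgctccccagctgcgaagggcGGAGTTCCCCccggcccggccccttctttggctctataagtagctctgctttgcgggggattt
Myo3b, chr2:70118981-70119143: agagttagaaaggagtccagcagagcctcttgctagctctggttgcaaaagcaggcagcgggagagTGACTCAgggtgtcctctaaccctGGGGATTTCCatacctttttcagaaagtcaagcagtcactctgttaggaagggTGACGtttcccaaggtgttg
Bace2, chr16:97307733-97307895: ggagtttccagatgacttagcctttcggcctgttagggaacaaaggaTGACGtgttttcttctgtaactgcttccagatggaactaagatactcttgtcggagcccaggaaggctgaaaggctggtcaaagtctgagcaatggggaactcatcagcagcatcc
Itgav, chr2:83700678-83700840: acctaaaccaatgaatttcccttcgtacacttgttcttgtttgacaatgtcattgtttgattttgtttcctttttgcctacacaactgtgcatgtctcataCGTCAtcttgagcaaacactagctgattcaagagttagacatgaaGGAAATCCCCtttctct
Rbp2, chr9:98499687-98499849: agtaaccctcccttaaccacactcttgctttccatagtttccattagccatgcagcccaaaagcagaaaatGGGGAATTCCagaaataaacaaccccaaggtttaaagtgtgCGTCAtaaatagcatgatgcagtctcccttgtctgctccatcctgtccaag

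The printed loci with the highest p65 scores differed in these motifs. At Fmnl2 and Pim1 no capital letter appears in 163 bp, whereas the Fgd2 locus held an AP1 motif followed by 2 overlapping matches to the degenerate NF-κB motif. The strongest CRTC2 locus, 71,600 bp upstream of Ptpn1, held the palindrome TGACGTCA, the full CREB site, which contains TGACG on each strand, and a further TGACG 38 bp away. The Ier3 promoter held an NF-κB motif and no TGACG. At Myo3b and Itgav the NF-κB match was the same 10 bases, GGGGATTTCC, on the plus strand at Myo3b and on the minus strand at Itgav. The NF-κB match at Bace2 does not lie wholly inside the printed peak but is inside the 200 bp window used for counts, so only its TGACG is in capitals.

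Most loci had p65 scores near the lowest listed value, as did the p65 list itself. The median p65 score was 8 (range 7 to 23) and the median signal 15.6 normalized tags, that is, tags scaled to 10,000,000 per library, against 7 and 13.7 over the whole p65 list. Of the 351, 242 were above the list's median tags. At the 125 co-bound loci with p65 also under TNFα these medians were 12 and 23.4, and at p65 peaks without CRTC2 they were 7 and 13.7. The lowest score was held by 123 loci, scores of 8 by 81, of 9 by 45, and of 10 or more by 102. Those 123 loci scored below any peak of the p65 TNFα list. In normalized tags, 287 of 351 loci reached the median of the p65 TNFα list, 12.3. That count was not made over the whole p65 FSK+TNFα list, whose own median of 13.7 was also above 12.3. The share of the p65 list that these loci made up was 4.72% at the lowest score, 9.68% at a score of 8, 14.7% at 9 and 21.7% at 10 or more. These are values that the selection used, and they are given as a description.

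The CRTC2 peaks of the loci were also above the median of their list. Each locus had 1 CRTC2 partner, with a median score of 21 and 14.5 normalized tags, against 15 and 11.3 over all 14171 CRTC2 peaks with FSK+TNFα. The p65 and CRTC2 midpoints were a median of 56 bp apart, and they were within 50 bp at 155 loci and within 100 bp at 266. The plot of p65 against CRTC2 tags shows that loci with the highest CRTC2 signal were mostly called for CRTC2 with FSK alone, whereas p65 signal had the same median whether or not CRTC2 was called with FSK.

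**Figure D1:**
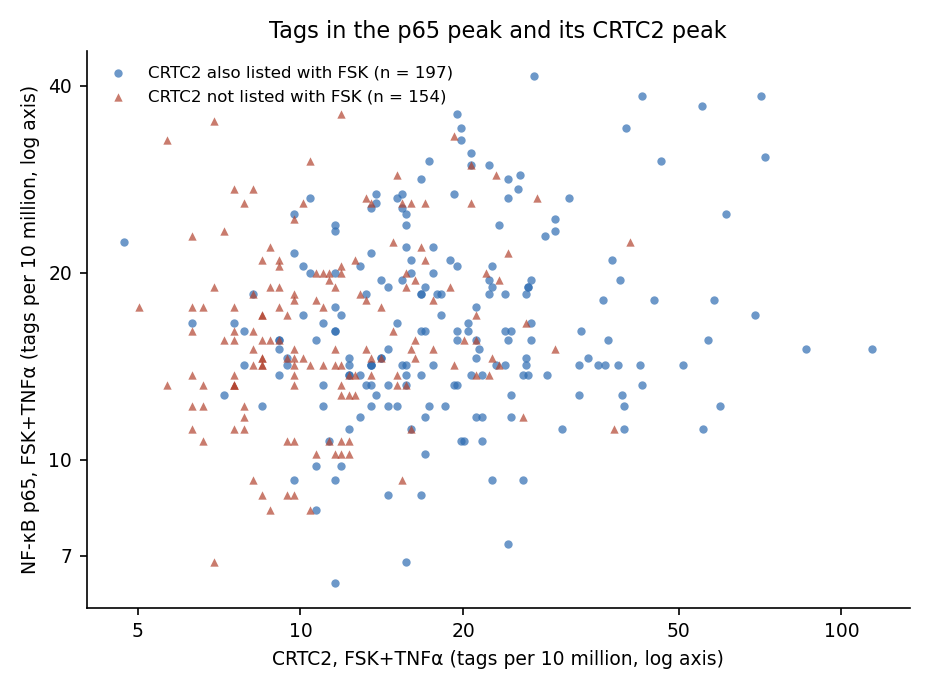
Normalized tags of the p65 peak (vertical, log axis) against those of its CRTC2 peak (horizontal, log axis), both with FSK+TNFα, for 351 loci, 1 point each. The 197 loci where CRTC2 was also listed with FSK (circles) had a median of 17.9 CRTC2 tags and 15.6 p65 tags, and the other 154 (triangles) 10.85 and 15.6.

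The edge of the selection was narrow at a few loci, which are named here after their values were seen. A locus upstream of Synpo, which codes for an actin-associated protein, lay 1 bp from a p65 TNFα peak, the Epn2 locus 50 bp, and the Mroh9 locus 320 bp. Just outside, the locus nearest Nfkbiz, which codes for a nuclear IκB protein, overlapped a p65 TNFα peak by 1 bp and was therefore not counted. On the CRTC2 side, the smallest overlaps that were counted were 1 bp at Bank1 and 2 bp at Pdgfc, and a p65 peak near Sox9 that abutted a CRTC2 peak was not. In all, 11 of 351 loci (3.13%) had a p65 TNFα peak within 1000 bp, and the median distance to one was 103,600 bp.

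To ask whether CRTC2 was also called at these sites in cells given FSK or TNFα alone, or neither, the loci were looked up in the other CRTC2 lists. CRTC2 was listed with FSK alone at 197 of 351 loci (56.1%, 95% interval 50.9 to 61.2), beside 44.9% of all CRTC2 peaks with FSK+TNFα. It was listed with TNFα alone at 75 loci (21.4%, 17.4 to 26.0), beside 43.3% of all CRTC2 peaks. In control cells it was listed at 17 loci (4.84%, 3.05 to 7.62), beside 12.9%. CRTC2 at these loci was thus listed more often with FSK, and less often with TNFα or in control cells, than over the whole CRTC2 list, with intervals that do not reach the whole-list values, but the TNFα and control differences moved with position. Looked up by their CRTC2 peaks in place of their p65 peaks, the loci gave shares of 58.7%, 21.1% and 5.13%. Promoters made up 44.6% of all CRTC2 peaks and 12.8% of the loci, and away from promoters the share with TNFα was 14.4% (10.9 to 18.8) at the loci and 15.5% over all CRTC2 peaks, and that in control cells 1.63% (0.70 to 3.77) and 3.31%. At promoters the control shares were 26.7% (16 to 41.0) and 24.8%. CRTC2 score moved with the FSK share, which was 36.6% of 191 loci with a score up to 21 and 79.4% of 160 above it. The part of score in the FSK share was not tested. The largest groups were 141 loci with CRTC2 listed with FSK but not with TNFα or in control cells, and 134 loci with CRTC2 in no other list. These groups were not counted over all CRTC2 peaks, so their sizes describe the loci only. At co-bound loci with p65 under TNFα, CRTC2 was listed with FSK at 44.8% (36.4 to 53.5), and the intervals of the 2 sets overlap.

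**Figure D2:**
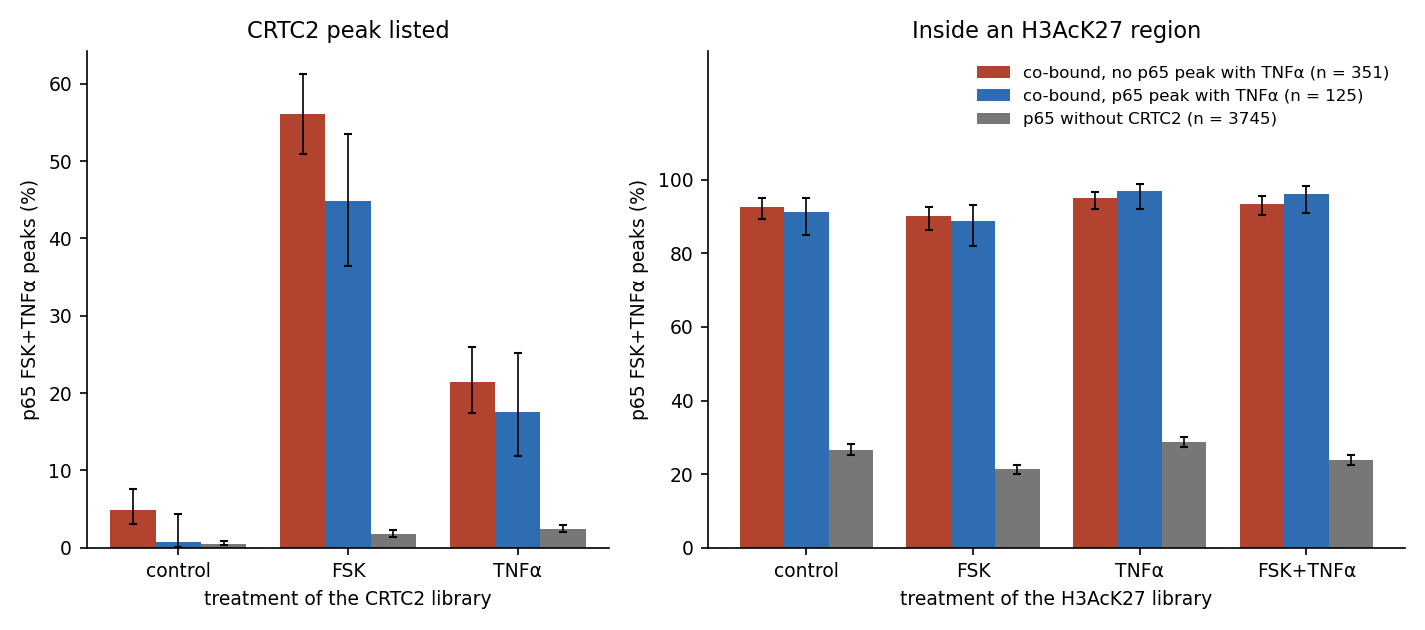
Share of p65 FSK+TNFα peaks (%) that overlapped a listed CRTC2 peak (left) or an H3AcK27 region (right) by treatment, for the 351 co-bound loci without a p65 peak under TNFα, the 125 with one and 3745 p65 peaks without CRTC2, with 95% Wilson intervals. Of the 3 other treatments, CRTC2 was listed most often with FSK in both co-bound sets. At p65 peaks without CRTC2 the shares were 1.79% with FSK and 2.46% with TNFα. Those peaks were chosen for lacking a CRTC2 peak with FSK+TNFα, so their low CRTC2 shares are not a result. The intervals of the H3AcK27 shares of both co-bound sets overlap in every treatment.

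Where CRTC2 was listed in both libraries, its signal differed little between FSK and FSK+TNFα. At 206 CRTC2 peaks of these loci with an FSK partner, the median was 16.4 normalized tags with FSK and 18.2 with FSK+TNFα, a median log2 ratio of 0.13. Over all 6364 such CRTC2 peaks the median log2 ratio was -0.05. A gain of over 1.5-fold was seen at 37 of the 206 (18%), beside 12.1% of all CRTC2 peaks, and a loss of that size at 18 (8.74%), beside 15.8%.

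p65 was seldom listed without TNFα at these loci, as at the peaks of the whole p65 FSK+TNFα list. This concerns those peaks only, because the p65 lists held 2969 peaks with FSK alone, 2404 with TNFα alone and 214 in control cells. At the loci p65 was listed with FSK alone at 9 of 351 (2.56%, 1.35 to 4.80), beside 1.11% of the FSK+TNFα list. In control cells it was listed at 0 (up to 1.08%), beside 0.142%. All 9 also had CRTC2 listed with FSK. They included the loci nearest to Nek6, Hp, Traf1, Il1rl2 and Lacc1, named after their values were seen. Hp codes for haptoglobin, an acute-phase protein, and its locus lay at the promoter.

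Most of the loci lay in acetylated chromatin in control cells. An H3AcK27 region covered 325 of 351 loci in control cells (92.6%, 89.4 to 94.9), 316 after FSK (90.0%), 333 after TNFα (94.9%) and 328 after the combination (93.4%, 90.4 to 95.6). Over the whole p65 list the shares were 34.1%, 29.0%, 36.2% and 31.8% for the same 4 libraries, and over all CRTC2 peaks 84.1%, 80.8%, 84.9% and 82.6%. The shares at the loci were thus nearer to those of all CRTC2 peaks than to those of the whole p65 list, and above both. Among p65 peaks without CRTC2 the share was 23.9% with FSK+TNFα. High shares were not confined to co-bound loci. At the 147 p65 peaks without CRTC2 that were also listed with TNFα, they were 83.7% (76.9 to 88.8) in control cells and 81.6% (74.6 to 87.1) with FSK+TNFα. Of the 351, 306 were covered in all 4 treatments and 14 in none. These joint counts were not made over the whole lists and are given as a description. The near-equal shares in control cells and with FSK+TNFα depended on the length of the lists, 52,321 and 42,227 regions. With each list cut to the 38,684 best-scored regions, the number in the FSK list, the shares were 82.3% in control cells and 91.2% with FSK+TNFα.

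Of the 26 loci without a region in control cells, 8 had one with FSK+TNFα (30.8%, 16.5 to 50), beside 4.28% of such p65 peaks and 18.4% of such CRTC2 peaks in the whole lists. The interval includes the CRTC2 value. Conversely, 5 loci covered in control cells were not covered with FSK+TNFα, a count that was not made over the whole lists. The 8, named after their values were seen, were nearest to Lgi2, Itgav, Ptgs2, 1600014C23Rik, Gramd3, Trp63, Prkch and Nfe2l2. The Ptgs2 locus lay 97,565 bp downstream of the start of the gene for the inducible cyclooxygenase. It had 37.3 normalized tags per kb with FSK, 32.1 with TNFα and 29.2 with FSK+TNFα.

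Within the regions, acetylation was modestly higher after each treatment. The median density was 67.4 normalized tags per kb in control cells, and 78.9 after FSK, 78.0 after TNFα and 78.5 after the combination. Paired at the same locus, the median log2 ratio to control was 0.23 with FSK (310 loci), 0.22 with TNFα (323) and 0.27 with FSK+TNFα (320), against 0.11, 0.10 and 0.12 over all CRTC2 peaks. A rise of over 1.5-fold was seen at 57 loci with FSK (18.4%, beside 11.9% of all CRTC2 peaks and 10.7% of all p65 peaks), at 34 with TNFα (10.5%, beside 4.58% and 11.1%) and at 56 with FSK+TNFα (17.5%, beside 11.5% and 13.2%). With TNFα the loci were thus near the p65 list, whose median log2 ratio was 0.20, and below the co-bound loci with p65 under TNFα, where 21.9% rose by over 1.5-fold. Loci with CRTC2 listed with FSK had median densities of 73.8 in control cells and 92.5 with FSK, and those without it 58.5 and 61.9. Paired at the same locus, the median log2 ratio of FSK to control was 0.27 with CRTC2 under FSK and 0.19 without it, and that of TNFα to control was 0.21 and 0.22. Densities are set by the width of each called region as well as by its tags, and the H3AcK27 FSK library was the shallowest, at 9,832,884 tags.

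The loci were mainly distal. Of 351, 178 were intergenic (50.7%), 119 intronic (33.9%), 45 at promoters (12.8%, 9.72 to 16.7), 5 in UTR exons and 4 in coding exons. A promoter here reaches 1000 bp before and 100 bp past a GENCODE start site. The promoter share was 44.6% over all CRTC2 peaks and 4.11% over p65 peaks without CRTC2, with intervals apart from that of these loci in both cases. At co-bound loci with p65 under TNFα it was 11.2% (6.79 to 17.9), which overlaps. The median distance to a start site was 19,100 bp, and the loci had 322 distinct nearest genes. Nearest genes are assigned by distance and do not show which gene a locus controls.

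Promoter loci differed from distal ones in their CRTC2 calls. CRTC2 was listed with TNFα alone at 31 of 45 promoter loci (68.9%, 54.3 to 80.5) and at 44 of 306 distal loci (14.4%, 10.9 to 18.8). In control cells it was listed at 12 promoter loci (26.7%, 16 to 41.0) and at 5 distal ones (1.63%, 0.70 to 3.77). With FSK the shares were 75.6% (61.3 to 85.8) and 53.3% (47.7 to 58.8). Over all CRTC2 peaks the split had the same direction, with CRTC2 listed with TNFα at 77.7% of promoter peaks and 15.5% of distal peaks. With FSK it was listed at 31.6% (30.6 to 32.6) of all distal CRTC2 peaks, below the interval of the distal loci. All 45 promoter loci lay in H3AcK27 regions in every treatment.

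The motifs show what the sequences of the loci held apart from the calls. In 200 bp around the p65 midpoint, 64 loci held TGACG (18.2%, 14.5 to 22.6), 89 an AP1 motif (25.4%, 21.1 to 30.2), 89 a degenerate NF-κB motif (25.4%, 21.1 to 30.2) and 82 the C/EBP motif TTGCNNAA (23.4%, 19.2 to 28.1). In windows of the same length 2000 bp away, the shares were 6.84% for TGACG, 5.41% for AP1, 1.71% for NF-κB and 7.98% for C/EBP. Only 5 loci held TGACGTCA, which contains TGACG. The strict NF-κB motif, every match of which is also a degenerate match, was in 12 loci (3.42%). None of TGACG, AP1 and degenerate NF-κB was found at 161 loci, a count that was not made over the whole lists. Singly, these motifs were in 6.11%, 8.84% and 9.97% of the whole p65 list, lower than at the loci. Matching was exact and on both strands, and a match is a description, not a bound site.

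Compared with the other sets, the loci held fewer NF-κB motifs than p65 sites that were also called with TNFα. The degenerate NF-κB motif was in 46.4% (37.9 to 55.1) of co-bound loci with p65 under TNFα, in 55.8% (47.7 to 63.6) of p65 peaks with TNFα but without CRTC2, and in 9.97% of the whole p65 list. Over all CRTC2 peaks it was in 4.47% (4.15 to 4.83). TGACG was in 16.8% (11.3 to 24.3) of co-bound loci with p65 under TNFα, in 25.2% of all CRTC2 peaks and in 4.62% of p65 peaks without CRTC2. Windows of all CRTC2 peaks were centred on the CRTC2 midpoint, and those of the other sets on the p65 midpoint. Around the CRTC2 midpoint, 77 of the 351 loci had a TGACG within 100 bp. Away from promoters, TGACG was in 17.6% (13.8 to 22.3) of the loci and in 21.5% of all CRTC2 peaks. Median GC content was 48.5% at the loci, 47.0% at co-bound loci with p65 under TNFα and 40% at p65 peaks without CRTC2. GC content can shift motif counts, and its part was not tested. The NF-κB share also moved with p65 score, from 16.3% (10.8 to 23.8) of 123 loci at the lowest score to 34.3% (25.8 to 43.9) of 102 loci at 10 or more. The latter interval meets that of co-bound loci with p65 under TNFα, but not that of p65 peaks with TNFα but without CRTC2. At co-bound loci with p65 under TNFα, AP1 was in 28.0% (20.9 to 36.4) and C/EBP in 27.2% (20.2 to 35.6). Both intervals overlap those of the 351 loci.

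The NF-κB motif and TGACG split the loci by whether CRTC2 had been listed with FSK alone. Where it had, 29 of 197 loci held a degenerate NF-κB motif (14.7%, 10.4 to 20.3), and where it had not, 60 of 154 did (39.0%, 31.6 to 46.8). TGACG ran the other way, at 47 of 197 (23.9%, 18.4 to 30.3) and 17 of 154 (11%, 7.01 to 17.0). AP1 shares were 20.8% (15.7 to 27) and 31.2% (24.4 to 38.9), and these intervals overlap. The p65 scores of the 2 groups had the same median of 8, whereas the CRTC2 scores had medians of 25 and 16. Among loci with a CRTC2 score up to 21, their median, the NF-κB shares were 15.7% (9.01 to 26.0, n = 70) with CRTC2 under FSK and 39.7% (31.4 to 48.6, n = 121) without it. Above that score they were 14.2% (9.16 to 21.3, n = 127) and 36.4% (22.2 to 53.4, n = 33). At distal loci alone they were 12.9% and 38.5%. This split was examined after the motif values had been seen. TGACG split the whole CRTC2 FSK+TNFα list in the same direction, in windows around the CRTC2 midpoint. It was in 34.5% of 6364 peaks with CRTC2 listed with FSK and in 17.7% of 7807 without. The TGACG split is therefore not particular to the loci. The degenerate NF-κB motif was in 3.68% (3.24 to 4.17) and 5.12% (4.66 to 5.64) of these peaks.

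At co-bound loci with p65 under TNFα the same split gave 41.1% (29.2 to 54.1) of 56 loci with CRTC2 under FSK and 50.7% (39.2 to 62.2) of 69 without it, and those intervals overlap. The loci with CRTC2 under FSK but no p65 under TNFα thus held the NF-κB motif less often than any other co-bound group, with an interval that meets none of the others. The sets differed in p65 score, with a median of 8 at the 351 loci and 12 at those with p65 under TNFα. Among the 351, at a score of 9 or more, the shares were 20.7% (13.4 to 30.7) with CRTC2 under FSK and 52.3% (40.4 to 64.0) without it. The first of these intervals meets the 29.2 to 54.1 above. The groups with p65 under TNFα were not split by score. TGACG was in 28.6% and 7.25% of the 2 groups with p65 under TNFα, the same direction as in the 351.

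**Figure D3:**
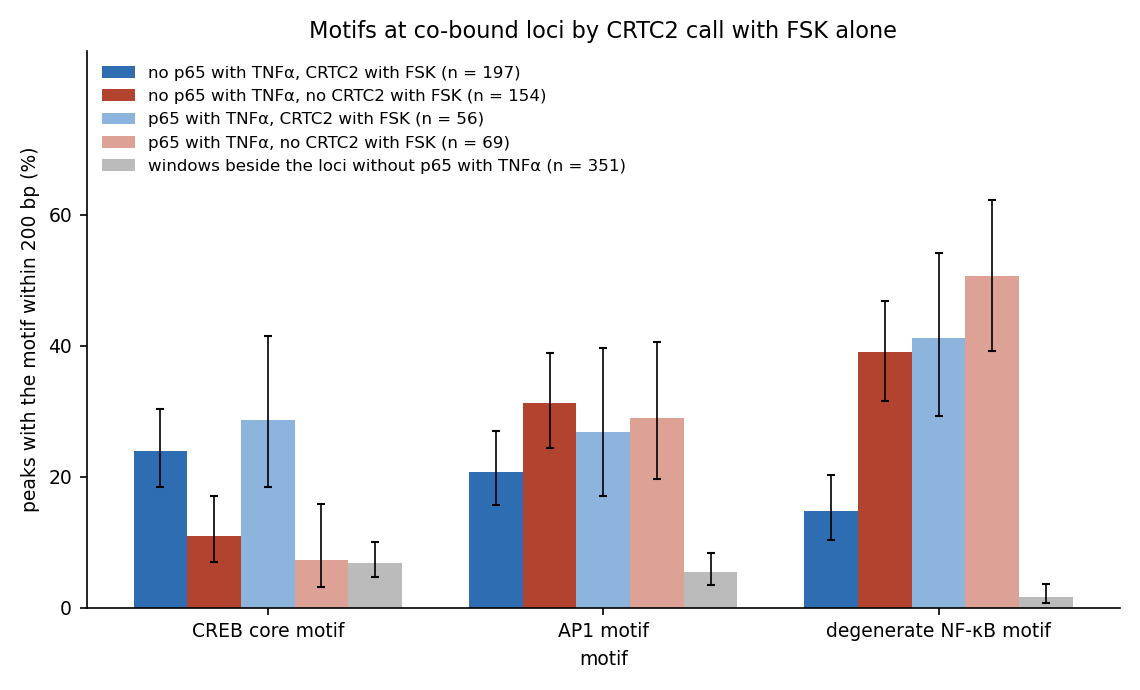
Share of loci (%) with each motif in 200 bp around the p65 midpoint, by set and by whether CRTC2 was listed with FSK alone, with 95% Wilson intervals; the CREB core motif is TGACG, and the grey bars are windows 2000 bp from the 351 loci. The NF-κB bar of loci with CRTC2 under FSK and no p65 under TNFα (14.7%) is lower than the other 3 co-bound bars (39.0% to 50.7%).

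Motif position followed the factor. Among loci with a match within 100 bp, the degenerate NF-κB motif lay a median of 26 bp from the p65 midpoint and 48.5 bp from the CRTC2 midpoint. TGACG lay 41 bp from the p65 midpoint and 27 bp from the CRTC2 midpoint. AP1 motifs lay 38 and 43 bp away. No interval was computed for these medians.

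**Figure D4:**
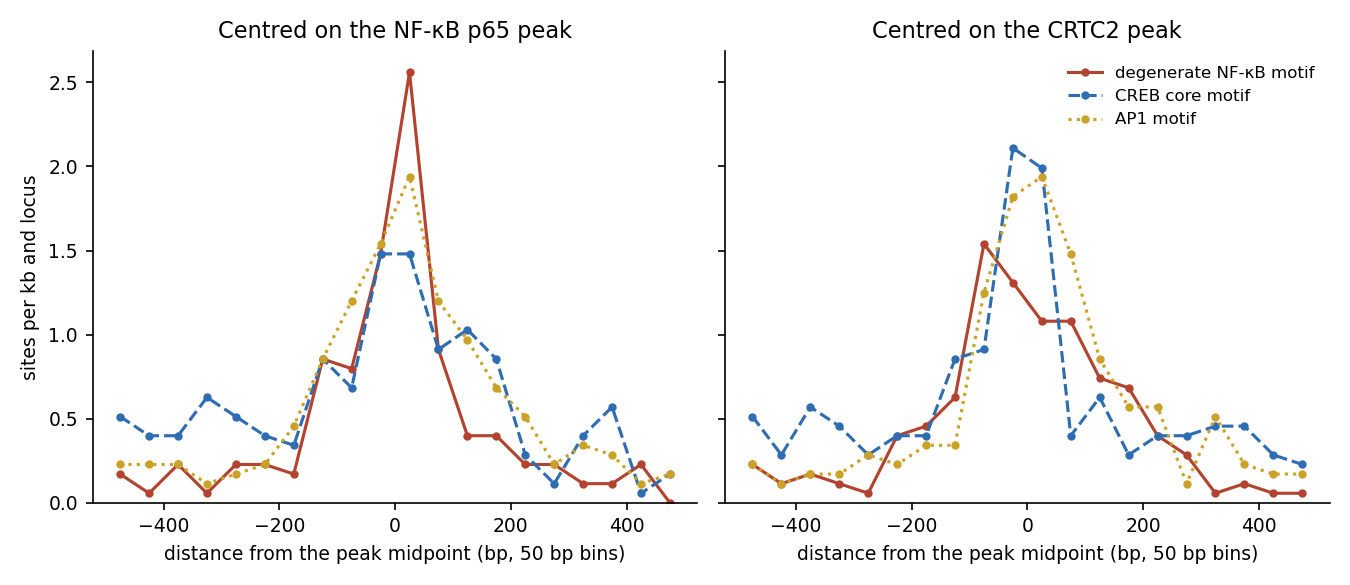
Motif matches per kb and locus in 50 bp bins around the p65 midpoint (left) and the CRTC2 midpoint (right) of the 351 loci. Degenerate NF-κB matches peaked at 2.56 beside the p65 midpoint, and TGACG matches at 2.11 beside the CRTC2 midpoint.

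The 10 loci with the highest p65 scores, from 17 to 23, were nearest to Smim3, Fmnl2, Pim1, Fgd2, Fam43a, Tnip1, Notch3, Olfr279, Nek6 and Arhgef17. The Smim3 locus, in an intron 20,624 bp from the start, had 38.6 p65 tags, and CRTC2 at 71.8 tags with FSK and 71.1 with FSK+TNFα, with none listed with TNFα. Fmnl2 codes for a formin that assembles actin, and its intronic locus had 41.5 p65 tags and CRTC2 at 10.3 tags with FSK and 27 with FSK+TNFα. Its H3AcK27 density was 32.5 in control cells, 44.6 after FSK, 78.0 after TNFα and 82.0 after the combination, so both libraries with TNFα were higher than both without. The locus 21,039 bp upstream of Pim1, a cytokine-induced survival kinase, had 34.2 p65 tags and CRTC2 at 9.13 tags with FSK and 39.9 with FSK+TNFα. Fgd2, Fam43a and Arhgef17, each with a degenerate NF-κB motif and an AP1 motif, had CRTC2 in the FSK+TNFα list only, at 11.9, 6.92 and 5.66 tags. The locus nearest the start of Arhgef17 lies in an intron of P2ry6. Near Notch3, a cell-surface receptor, CRTC2 had 75.4 tags with FSK, 12.5 with TNFα and 72.3 with FSK+TNFα, and acetylation was 115.0 in control cells and 193.0 with FSK.

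The 10 loci with the highest CRTC2 scores all had CRTC2 listed with FSK. Ptpn1 codes for a tyrosine phosphatase that acts on the insulin receptor. The locus upstream of it had CRTC2 at 91.3 tags with FSK, 10.2 with TNFα and 114.1 with FSK+TNFα, and a p65 peak of 15.1 tags at 4.11-fold over input, just above the threshold of 4. Near Sfta2 CRTC2 had 67.5 tags with FSK and 86.1 with FSK+TNFα, and none was listed with TNFα. Hipk2, which codes for a nuclear kinase, had 26.8 and 59.7 tags. Lacc1 had 30.4 and 50.9, and Osbp2, an oxysterol-binding protein gene, 51.1 and 56.6. Slc25a4 (the mitochondrial ADP/ATP carrier) and H2-D1 (a class I histocompatibility gene) had CRTC2 in all 4 libraries, as did Ier3. At Slc25a4 it was 21.2 tags in control cells, 56.0 after FSK, 68.0 after TNFα and 61.3 after the combination. At H2-D1 the values in that order were 21.2, 51.7, 83.5 and 55.6.

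Among promoters, the highest CRTC2 scores were at Ier3, Hist2h4, Birc3, Ugdh and Elmod2. Ier3 is an immediate-early survival gene, and CRTC2 at its promoter was 23.3 tags in control cells, 90.6 after FSK, 153.0 after TNFα and 69.2 after the combination. Its p65 peak had 17.1 tags, and the nearest p65 TNFα peak lay 242,942 bp away. Hist2h4, a histone gene that belongs to a family of near-identical copies and whose reads may be shared among them, had 38.7, 58.4, 71.8 and 58.2 CRTC2 tags in the same order. The promoter of Birc3, an inhibitor of apoptosis, held 15.8 tags with FSK, 13.2 with TNFα and 39.0 with FSK+TNFα, and a degenerate NF-κB motif. Ugdh had 32.2 tags with FSK and 39.3 with FSK+TNFα, and Elmod2, with a TGACG, 39.5 and 39.6.

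**Figure D5:**
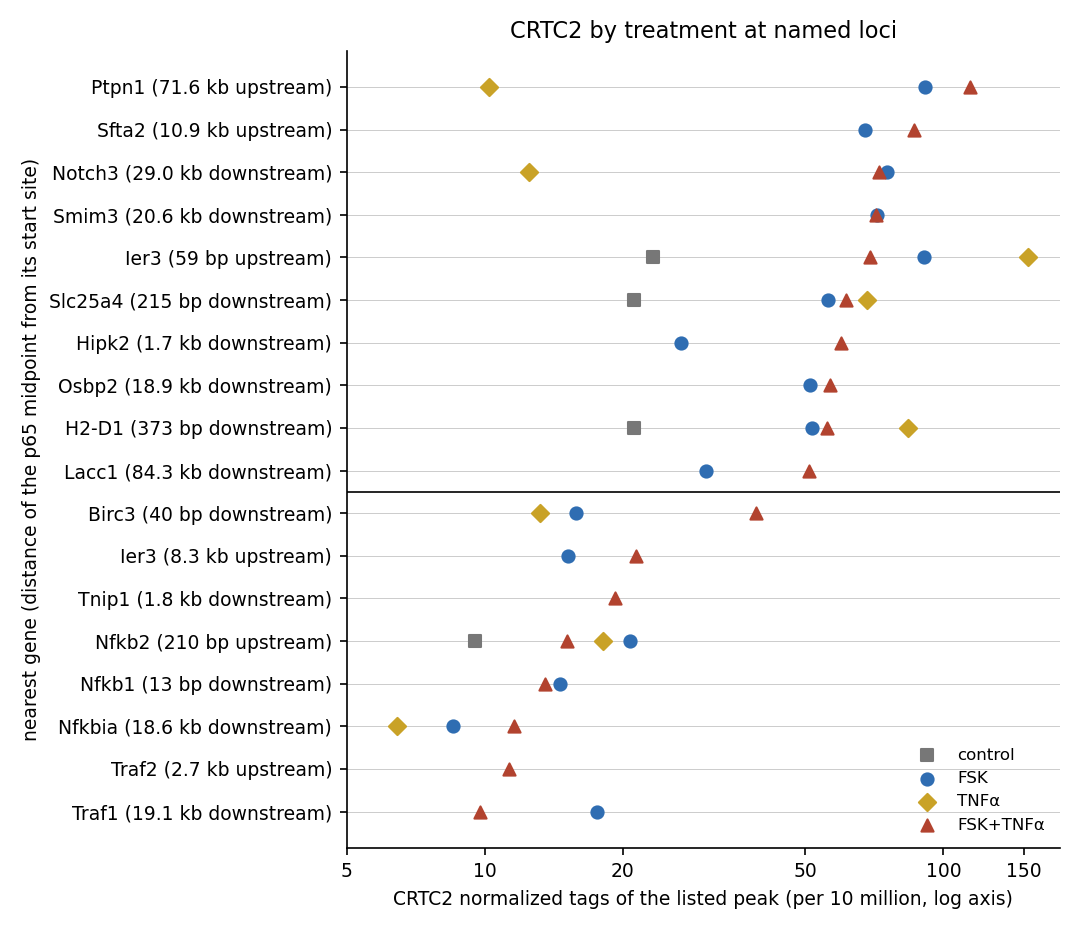
CRTC2 normalized tags (log axis) in each of 4 libraries at the 10 loci with the highest CRTC2 score (above the line) and at the other loci nearest to NF-κB subunit, inhibitor and target genes (below the line). A missing symbol means that no CRTC2 peak was listed there. The symbol for TNFα is missing or far to the left of that for FSK at most loci over 1 kb from a start site and to its right at Ier3, Slc25a4 and H2-D1, each within 400 bp of a start site.

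By list, 9 loci were nearest to 8 of 35 NF-κB subunits, inhibitors and target genes (2.56% of loci, against 1.07% of all p65 peaks and 0.706% of all CRTC2 peaks). They were 2 near Ier3 and 1 each near Tnip1, Traf1, Traf2, Birc3, Nfkb1, Nfkb2 and Nfkbia. Tnip1 codes for an inhibitor of NF-κB signaling that works with A20. Its intronic locus had 33.2 p65 tags and CRTC2 in the FSK+TNFα list only, at 19.2 tags. The promoters of Nfkb1 and Nfkb2, which code for precursors of NF-κB subunits, each held a degenerate NF-κB motif, with p65 at 12.2 and 16.6 tags. A p65 TNFα peak lay 601 bp from the Nfkb2 locus. For Nfkbia, which codes for IκBα, the locus was 18,633 bp downstream and its start site had its own p65 TNFα peak 16 bp away. Absence of p65 with TNFα therefore concerns the locus and not the gene in these cases. Near the TNF receptor adaptor genes, CRTC2 was 17.6 tags with FSK and 9.75 with FSK+TNFα at the Traf1 locus. At the Traf2 locus it was listed with FSK+TNFα only, at 11.3 tags. The start sites of Traf1 and Traf2 had a CRTC2 TNFα peak 86 and 231 bp away.

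Cytokine and chemokine genes accounted for 4 loci (1.14%, against 0.877% of all p65 peaks), at Il6, with 2, Tnfsf11 and Lif. The Il6 loci lay 119,660 bp and 12,072 bp upstream, both with TGACG and without a degenerate NF-κB motif. At the far one CRTC2 was 15.2 tags with FSK, 12.1 with TNFα and 26.7 with FSK+TNFα, and at the near one 14 with FSK and 18.5 with FSK+TNFα. The locus 41,121 bp downstream of Lif had CRTC2 at 17.0, 10.2 and 21.7 tags with FSK, TNFα and FSK+TNFα, and a p65 TNFα peak 438 bp away.

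CREB/CRTC target genes accounted for 4 loci (1.14%, against 0.875% of all CRTC2 peaks), nearest to Nfil3, Ptgs2, Sik1 and Cebpb. Nfil3 codes for a transcription factor that opposes the clock activators, and its locus, 1698 bp upstream, had CRTC2 at 29.8 tags with FSK and 25.2 with FSK+TNFα. Its acetylation was 132.0 with FSK and 128.0 with FSK+TNFα, above 77.0 in control cells and 87.8 with TNFα. At the loci nearest to Ptgs2, Sik1 and Cebpb CRTC2 was listed with FSK+TNFα only, at 16.3, 9.75 and 15.4 tags. This concerns the loci and not the genes, whose start sites had a CRTC2 TNFα peak 40, 46 and 42 bp away. Cebpb and Cebpd code for early factors of adipogenesis, and the Cebpd locus, in an intron of Spidr, was the 1 locus nearest to a gene of the adipocyte and lipid list. CRTC2 there was 21.9 tags with FSK and 17.3 with FSK+TNFα.

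The remaining lists had 0 to 4 loci each. Matrix genes had 4 loci (1.14%, against 0.545% of all p65 peaks), of which the 2 nearest to Col4a1 lie in introns of Col4a2 and the others were near Col3a1 and Thbs2. Genes of the cAMP pathway had 3 (Akap2, Rapgef4 and Sik1; 0.855%, against 0.64%), clock genes 1 (Nfil3; 0.285%, against 0.0711%), and the 16 AP-1 and small Maf factors 0 (against 0.308%). The adipocyte and lipid list had 0.285%, against 0.426%. Counts this small cannot separate these shares from those of the whole list. Near Akap2, which codes for a protein kinase A anchor, CRTC2 was 51.7 tags with FSK and 55.3 with FSK+TNFα, and acetylation was 80.1 in control cells and 163 with FSK+TNFα. In total 24 of 351 loci were nearest to a listed gene, with Sik1 and Nfil3 each in 2 lists. The only gene nearest to 3 loci was Myc, and these lay 376,858 bp upstream and 229,680 and 582,036 bp downstream.

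TGACG and a degenerate NF-κB motif occurred together at 17 loci (4.84%, 3.05 to 7.62). This joint count was not made over the whole lists and is given as a description. The 8 with the highest p65 scores were nearest to Myo3b, Bace2, Itgav, Rbp2, AI837181, Isl1, Rnd1 and Lrp1. Of these, Myo3b, Isl1 and Rnd1 had no CRTC2 peak with FSK. Itgav, an integrin subunit gene, had CRTC2 at 8.52 tags with FSK and 15.4 with FSK+TNFα, and H3AcK27 regions with TNFα (31.6) and FSK+TNFα (41.1) but none in control cells or with FSK. Lrp1 codes for a lipoprotein receptor, and its intronic locus had CRTC2 at 43.2 tags with FSK, 12.1 with TNFα and 36.5 with FSK+TNFα. Acetylation there was 26.6 in control cells, 59.0 with TNFα, 115.0 with FSK and 112.0 with FSK+TNFα, so both libraries with FSK were higher than both without.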

How the data were processed

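ChIP-seq peak lists from 12 libraries were used (CRTC2, p65 and H3AcK27 in 4 treatments), and the 2 input libraries entered only through the lists. Groups followed the sample labels. Per the submitters' processing notes, the authors used STAR, HOMER and mm10, with versions not given in the sources used here. The deposited signal of a peak is its tag number scaled to 10,000,000 tags, the deposited score counts at most 1 tag per position, and the deposited fold is a ratio to the input or to the local 10000 bp. Peaks had to reach 4-fold over input at a Poisson p-value of 0.0001, with an FDR of 0.001 for CRTC2 and p65. Libraries held 9,832,884 to 31,807,394 tags, so a shallow list can miss weak peaks, and repeated tags are not independent.

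Coordinates are 1-based on GRCm38, with protein-coding start sites from GENCODE mouse release 21 and sequence from the GRCm38 patch 6 assembly. Loci were found by overlap of at least 1 bp, motifs by exact matches in 200 bp, and shares carry 95% Wilson intervals. No test was run, because each treatment had 1 library. The loci and the gene lists were chosen with earlier results of these data known. Named loci were the 10 with the highest p65 score, the 10 with the highest CRTC2 score, the 5 promoters with the highest CRTC2 score, those nearest to a listed gene, genes nearest to at least 3 loci, and up to 8 with TGACG and a degenerate NF-κB motif. Others are marked as named after their values were seen. Alternatives covered the overlap, the absence rule, thresholds, list length, dense input bins, promoter extent and motif window. Overlap and motif code was tested on simulated data. Software was samtools 1.23.1 and Python 3.11.15 with matplotlib 3.10.9, pandas 2.3.3, pysam 0.24.0, numpy 2.4.6 and scipy 1.17.1.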

Additional observations from a re-analysis of the deposited data

How the results depend on the processing

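The number of loci was 170 with p65 and CRTC2 at 8-fold or more over input and 228 with p65 above the lowest score, against 351. With the latter, the H3AcK27 shares were 95.2% in control cells and 96.1% with FSK+TNFα, and the NF-κB motif share was 30.3%. With CRTC2 lists shortened to the 5188 peaks of the control list, CRTC2 was listed with FSK at 35.0% and with TNFα at 7.41% of loci, and with CRTC2 midpoints within 500 bp at 62.7% and 32.2%. With H3AcK27 lists of equal length the control share was 82.3% and the FSK+TNFα share 91.2%. In 500 bp windows TGACG, AP1 and NF-κB shares were 30.8%, 39.6% and 31.6%, a wider window holding more bases, and within the p65 peak itself the NF-κB share was 20.8%. The other 45 of 59 comparisons stayed within 1.5 times the count or within the interval of the share. No locus lay in the 4 bins of 2 Mb that were dense in the input.

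The NF-κB split by CRTC2 with FSK kept its direction in all 6 alternatives, which were chosen after seeing the data, ranging from 12.9% to 21.8% with CRTC2 under FSK and from 36.4% to 52.3% without it. No paired analysis was possible because the labels carry no replicate numbers. Single libraries limit every treatment difference, and tags at unlisted loci are unknown.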
